A study of Mus musculus with 8 samples.

Results

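*Bhlhe40* and *Bhlhe41*, 2 of the 17921 genes counted, were chosen by name as the closely related pair of transcription factors also called DEC1 and DEC2, and were read in every labelled cell type, in the clusters of B cells and plasma cells (PCs), and in both groups of mice. Lung grafts of male mice were dissociated 1 month after orthotopic left lung transplantation (LTx), and 20778 single cells were sequenced with a droplet assay of transcript 3′ ends. In the B6→B6 group (n = 5) donor and recipient were both C57BL/6 (B6). In the HLA→B6 group (n = 3) the donor was a C57BL/6 mouse with the transgene Tg(HLA-A2.1)1Enge, which encodes human HLA-A2.1, and the recipient was B6, a pairing used as a model of bronchiolitis obliterans syndrome (BOS), in which donor and recipient differ by that transgene. No mouse of either group received immunosuppression. Each graft was 1 mouse and 1 library, so the mouse is the replicate. Unique molecular identifiers (UMIs) count molecules, and a level is the gene's part of all UMIs of a type in a mouse on the counts-per-million scale (CPM).

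Both genes encode basic helix-loop-helix proteins of the Orange family, which act mainly as transcriptional repressors at the E-box CACGTG, the same site that the clock activators CLOCK and BMAL1 (gene *Arntl*) use. *Bhlhe41* is known in B cells for the maintenance of self-renewing B-1 cells, and both genes are known in alveolar macrophages for sustaining proliferation and identity. *Bhlhe40* is also known in T cells, where it supports production of inflammatory cytokines and represses *Il10*.

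Both genes lie on chromosome 6 of GRCm38 in the GENCODE vM21 annotation. *Bhlhe40* (ENSMUSG00000030103.11) spans 108660629 to 108666925 on the plus strand, and 306 of its bases overlap the antisense gene *0610040F04Rik*, which held 4 UMIs in all cells. *Bhlhe41* (ENSMUSG00000030256.11) spans 145858243 to 145865558 on the minus strand and contains the tentative opposite-strand model *Gm43909*, which is not a row of the count table. Whether the counting used strand was not given in the sources used here. The RefSeq promoter table (GRCm38.p6) has an entry for *Bhlhe41* and 0 for *Bhlhe40*. The *Bhlhe41* entry itself holds 1 copy of the E-box, 153 bases before the RefSeq start. Its 112 bases outside the annotated gene, chr6:145865559-145865670 on the minus strand, are shown because they carry the letters its own protein family binds, with the E-box in capitals.

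Bhlhe41: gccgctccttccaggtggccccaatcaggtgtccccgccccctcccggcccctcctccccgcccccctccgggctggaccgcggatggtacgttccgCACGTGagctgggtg

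CACGTG reads the same on both strands. A promoter window here is the 250 bases before a RefSeq start, longer than the stretch printed above. CACGTG was present in 1978 of 32851 such windows (6.02%). It was found for 6.86% of the genes with a window and 11.3% of those tested in alveolar macrophages. It was in the windows of 4 of 16 clock genes with an entry (*Per1*, *Cry1*, *Tef* and *Ciart*) and 1 of 6 genes of macrophage self-renewal (*Klf4*), and of 0 of 11 B-1 genes, 0 of 10 Orange, Id and E protein genes and 0 of 6 cytokine genes. The E-boxes of 4 of these 5 genes are printed because they are the letters that both proteins and the clock activators share, in genes of lists read in macrophages below. Each line gives 30 bases with the E-box in capitals.

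Per1, chr11:69098771-69098800, plus strand: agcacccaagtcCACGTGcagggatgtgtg
Cry1, chr10:85185097-85185126, minus strand: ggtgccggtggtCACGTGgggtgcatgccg
Tef, chr15:81802534-81802563, plus strand: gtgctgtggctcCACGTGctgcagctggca
Klf4, chr4:55532640-55532669, minus strand: cgcccccgccccCACGTGcgcggagtttgt

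Depth per mouse was between 1669076 and 12445769 UMIs, with a median of 1356 to 1948 UMIs per cell. *Bhlhe40* gave 3448 UMIs and *Bhlhe41* 2280 of 43747478 in all, so the sums over cells carry the levels and a single cell at 0 carries little. B6→B6 replicates 1 to 3 shared more cell barcodes with each other, and HLA→B6 replicate 2 with B6→B6 replicates 1 and 2, than other pairs did (7.90 to 58.3 times the median rate of a pair, against at most 2.04), and these 4 libraries are called linked. In all 1014 cells had a barcode found in another mouse. Values without shared barcodes leave out 793 of them and are given where they differ. The deepest cell of a barcode was kept where it far exceeded the next in UMIs. Cells labelled alveolar macrophage were not alike between the groups, which touches each macrophage result below. Their 7 marker genes (*Chil3*, *Ear2*, *Mrc1*, *Marco*, *Krt79*, *Car4* and *Siglecf*, each detected in both groups) summed to between 9643 and 12028 CPM in B6→B6 mice, and to 3710, 348 and 4398 CPM in HLA→B6 replicates 1, 2 and 3. The complement genes *C1qa*, *C1qb* and *C1qc*, which mark interstitial macrophages, summed to between 85.5 and 4778 CPM in B6→B6 mice and to 8491, 6496 and 4415 CPM in the HLA→B6 mice. Hemoglobin RNA (*Hbb-bs* and *Hba-a1*), a sign of red blood cells, was at 347 to 11897 CPM in the B6→B6 macrophages and at 0 to 386 CPM in the HLA→B6 ones.

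The 2 genes were highest in different sets of cells. *Bhlhe40* was spread over many lineages and was highest in natural killer (NK) cells (143 ± 30.9 CPM, SD, n = 8 mice), alveolar macrophages (142 ± 36.4, n = 8) and cells labelled myeloid (133 ± 104, n = 8), whereas B cells had 13.0 ± 8.45 CPM (n = 8). *Bhlhe41* was found mostly under 3 labels: alveolar macrophages (173 ± 42.3 CPM, n = 8), PCs (66.8 ± 0.244, in the 2 HLA→B6 mice with 10 or more PCs) and B cells (53.0 ± 36.1, n = 8) held 91.8% of its UMIs. Alveolar macrophages alone held 78.9% of the *Bhlhe41* UMIs and 35.2% of the *Bhlhe40* UMIs, with 21.3% of all UMIs.

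Down the order of *Bhlhe40*, monocytes (66.7 ± 28.8 CPM), T cells (57.0 ± 37.9) and structural cells (55.8 ± 37.8) followed, then the cells labelled leukocyte (14.3 ± 23.9, n = 7), which carried neutrophil genes. From NK cells down to structural cells the gap between neighbours in this order was smaller than the larger of their SDs, so none of these types was separated from the next by the spread between mice. PCs were at 2.79 and 4.17 CPM in the 2 mice with enough of them. Red blood cells (structural cluster 4), which should lack the transcript, are given for comparison. *Hbb-bs* and *Hba-a1* summed to between 607408 and 697543 CPM in them, so that fewer of 1000 UMIs are left for other RNA. Of them 0.806% ± 0.779 (SD, n = 6) showed a *Bhlhe40* UMI when each cell was thinned to 1000 UMIs. B cells were at 1.12% ± 0.701 (n = 8), and whether free RNA gave this share was not tested. NK cells (12.8% ± 2.63), alveolar macrophages (14.3% ± 3.92), monocytes (7.54% ± 2.90) and T cells (5.32% ± 3.18) were higher. Unthinned, the shares over all cells were 3.42% in red blood cells at a median of 5067.5 UMIs, 2.23% in B cells at 1597.5 UMIs and 31.1% in alveolar macrophages at 2791.5 UMIs.

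For *Bhlhe41*, alveolar macrophages were separated from PCs, with no overlap of the mice, while the ranges of PCs and B cells overlapped. Structural cells (12.3 ± 9.29 CPM), myeloid cells (9.45 ± 16.8, and 3.84 without HLA→B6 replicate 1) and NK cells (4.33 ± 5.54) followed. Monocytes held 1 UMI in 1968 cells, and T cells 1 UMI in 5071 cells, although T cells were sequenced to a median of 1648 UMIs and carried 20.9% of all UMIs. The share of thinned cells with a UMI was accordingly low, at 0.00705% ± 0.0199 of thinned T cells (n = 8) and 0.0705% ± 0.173 of red blood cells (n = 6). In the unthinned cells 0.0197% of T cells, 0.311% of red blood cells, 4.46% of B cells and 32.5% of alveolar macrophages had a *Bhlhe41* UMI.

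**Figure D1:**
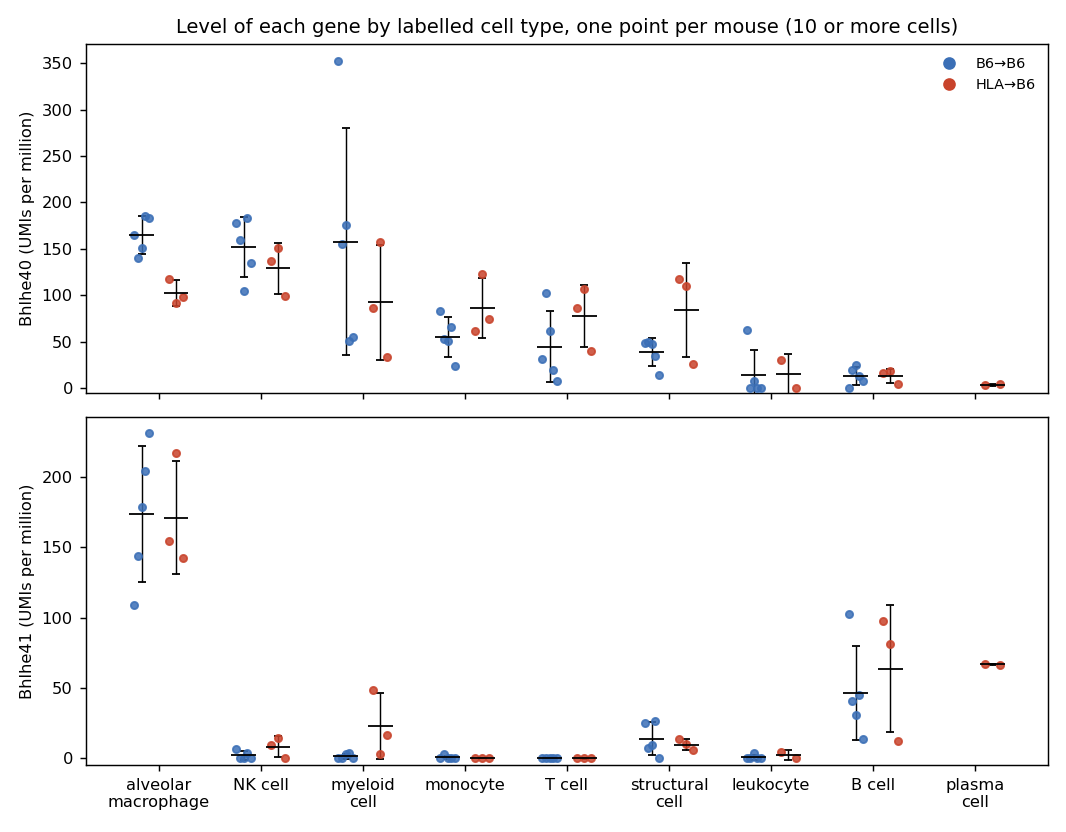
Level of Bhlhe40 (upper panel) and Bhlhe41 (lower panel) in CPM for each labelled cell type, one point per mouse with 10 or more cells of the type, B6→B6 in blue and HLA→B6 in red, with bars for the mean ± SD. Bhlhe40 is spread over NK cells, macrophages, myeloid cells, monocytes, T cells and structural cells, while Bhlhe41 is highest in alveolar macrophages (mean 173), followed by plasma cells and B cells, and is near 0 in monocytes and T cells.

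The share of *Bhlhe41* among the UMIs of both genes depends on how well each transcript is captured, so it is read between types only. Over the pooled mice *Bhlhe41* made up 95.7% of the UMIs of both genes in PCs, 77.0% in B cells, 59.7% in alveolar macrophages, 17.3% in structural cells, 11.6% in myeloid cells, 3.70% in NK cells, 0.304% in monocytes and 0.161% in T cells. In single mice with 10 or more UMIs of the pair, this share lay between 55.6% and 100% in B cells, 39.8% and 70.3% in alveolar macrophages, 8.33% and 44.0% in structural cells, 0% and 36.2% in myeloid cells, 0% and 8.82% in NK cells, 0% and 5.56% in monocytes and 0% and 0.610% in T cells. The 2 mice with enough PCs were at 94.1% and 96.0%, and the ranges of neighbours in this order overlapped.

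Over 64 sums of a mouse and a type with 20 or more cells, across 10 types, the log2 levels of the pair had a Pearson r of 0.07 with each other, a description that shares libraries and types between points. The genes most like *Bhlhe40* were *Ahnak* (r = 0.80), a large scaffold protein of the cell membrane, *Mpv17l2* (0.76), *Tbcb* (0.75), a tubulin folding cofactor, *Coro1c* (0.75), an actin-binding coronin, and *Blvra* (0.74), biliverdin reductase. The genes most like *Bhlhe41* were *Bcar3* (0.79), an adaptor in integrin signalling, *Ahnak2* (0.74), *Slc7a2* (0.73), a cationic amino acid transporter, *Abca1* (0.73), the cholesterol exporter, and *Lrp12* (0.73). *Bcar3* was at 53.1 ± 16.8 CPM in B cells, 54.3 ± 31.8 CPM in alveolar macrophages and 0.519 ± 1.19 CPM in monocytes. With Spearman's rho 2 of the 5 genes remained for *Bhlhe40* and 1 for *Bhlhe41*, and with 1 mean per type 0 and 2 remained.

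In alveolar macrophages, *Bhlhe40* was lower in every HLA→B6 mouse than in every B6→B6 mouse, and *Bhlhe41* was not. The *Bhlhe40* level was 165, 139.9, 151, 186 and 183 CPM in B6→B6 replicates 1 to 5 and 118, 91.8 and 97.9 CPM in HLA→B6 replicates 1 to 3. The groups did not overlap, at 165 ± 20.1 against 103 ± 13.7 CPM (SD; exact permutation test, two-sided, p = 0.0357, the smallest that 5 against 3 mice can give, and 0.286 after adjustment over 8 types). The lack of overlap was shared by many genes: 17.7% of the 5798 genes tested were lower in every HLA→B6 mouse and 5.14% were higher. In the fit across all genes (edgeR, quasi-likelihood test), which corrects for such a shift, the log2 fold change of *Bhlhe40* was -0.46 (SE 0.17) with an adjusted p of 0.0828, short of the threshold of 0.05 that 11.9% of all genes passed. The fold change was past the threshold without that correction for composition (-0.69, adjusted p = 0.0192), with the sets of linked libraries as a block (-0.50, adjusted p = 0.0307) and without cells of shared barcodes (-0.49, adjusted p = 0.0454).

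The share of macrophages with a *Bhlhe40* UMI at equal depth gave the same order. After thinning each cell to 1000 UMIs it was 17.1%, 17.5%, 16.5%, 17.1% and 17.1% in the B6→B6 mice and 11.6%, 8.51% and 9.01% in the HLA→B6 mice. The B6→B6 mice were close to each other and all above the HLA→B6 mice, and the difference of the group means was -7.35 percentage points (17.1% ± 0.365 against 9.72% ± 1.68, exact permutation p = 0.0357, adjusted over 7 types 0.25). Permuted within the linked and the unlinked libraries, the p was 0.0833, again the smallest possible. Fewer transcripts per cell and fewer cells with the transcript cannot be told apart, either in the sums or in the thinned shares.

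*Bhlhe41* in the same cells was 109, 144, 179, 204 and 231 CPM in the B6→B6 mice and 154, 217 and 143 CPM in the HLA→B6 mice. The groups overlapped fully, with means of 173 ± 48.4 and 171 ± 39.8 CPM. Its log2 fold change was 0.23 (SE 0.24, adjusted p = 0.565), and it was -0.02 without the correction for composition and -0.05 without HLA→B6 replicate 2.

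**Figure D2:**
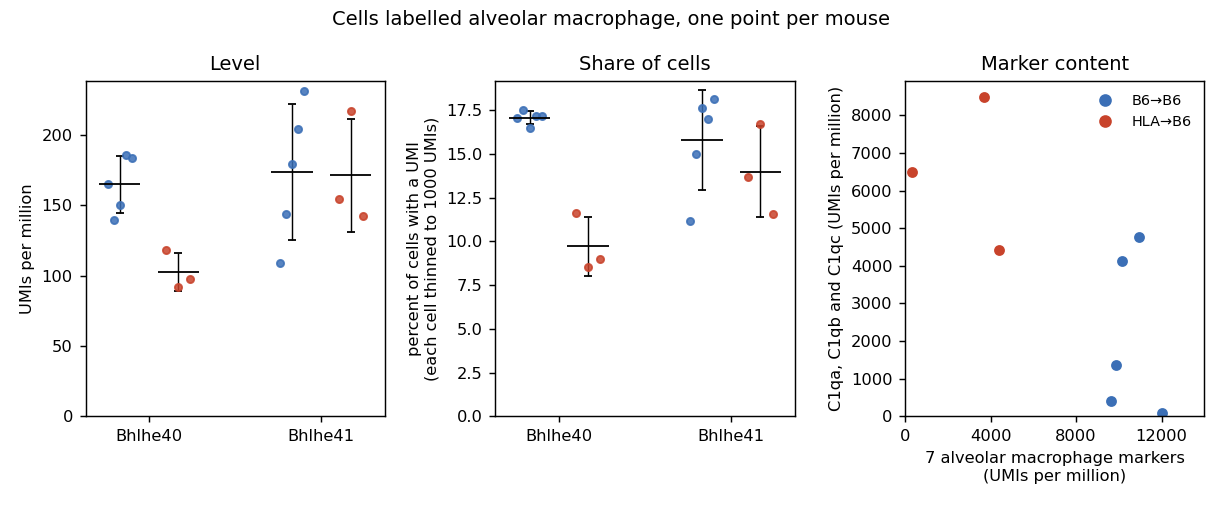
Cells labelled alveolar macrophage, one point per mouse, B6→B6 in blue and HLA→B6 in red: level of each gene in CPM (left), percent of cells with a UMI after thinning to 1000 UMIs (middle), both with mean ± SD, and the summed level of 7 alveolar macrophage markers against that of the 3 C1q genes (right). The HLA→B6 mice lie below all B6→B6 mice for Bhlhe40 and among them for Bhlhe41, and they lie apart in marker content, at 348 to 4398 CPM of the markers where the B6→B6 mice are at 9643 to 12028.

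Since marker content differed between the groups, the macrophages were also split cell by cell, a choice made after these values were seen. Of 2494 cells, 1477 (59.2%) had more UMIs of the 7 alveolar macrophage markers than of *C1qa*, *C1qb* and *C1qc* (marker side), 868 (34.8%) had more C1q UMIs (C1q side) and 149 (5.97%) had a tie. The marker side made up 45.4% to 97.8% of the macrophages in B6→B6 mice and 50.1%, 13.6% and 33.8% in HLA→B6 replicates 1, 2 and 3. Over cells of at least 1000 UMIs, which the thinned shares use, it was 86.3% to 98.9% and 52.9%, 12.7% and 52.5%, without overlap of the groups.

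On the marker side *Bhlhe40* lay between 175 and 188 CPM in all 5 B6→B6 mice and at 183, 119.6 and 124 CPM in HLA→B6 replicates 1, 2 and 3. HLA→B6 replicate 1 thus fell inside the range of the B6→B6 mice and the other two below it. The log2 fold change on this side was -0.17 (SE 0.19, adjusted p = 0.705), with 4.81% of the 4967 genes tested called. The CPM levels overlapped, at 184 ± 5.21 in B6→B6 and 142 ± 35.1 in HLA→B6 mice (exact permutation p = 0.0714). The thinned share was 18.0% ± 1.08 against 14.0% ± 1.77 (exact permutation p = 0.0357). That p is the smallest that 5 against 3 mice can give and was not adjusted. How many genes separate likewise on this side was not counted. On the C1q side *Bhlhe40* was lower in both groups, at 68.5 ± 33.2 CPM in the 4 B6→B6 mice with 10 or more such cells and at 79.9 ± 4.04 CPM in the HLA→B6 mice. The fold change there was 0.54 (SE 0.39, adjusted p = 0.640; 1.13% of 1862 genes called).

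*Bhlhe41* was found on both sides in each HLA→B6 mouse, and on the C1q side in 1 of the 4 B6→B6 mice with enough cells. Marker-side cells had 114 to 248 CPM in the B6→B6 mice and 221, 292 and 168 CPM in the HLA→B6 mice. C1q-side cells had 116, 198 and 120.3 CPM in HLA→B6 replicates 1, 2 and 3, and 0, 59.0, 0 and 0 CPM in B6→B6 replicates 1 to 4, where these cells were often shallow (median 530.5, 566, 2114 and 2702 UMIs per cell, against 3948.5, 8005 and 788.5 in the HLA→B6 mice). The counts behind these B6→B6 values were 7 UMIs in all, and the upper limits of their 95% Poisson intervals, which cover counting error only, were 116, 121, 27.4 and 70.0 CPM. The groups did not overlap (14.7 ± 29.5 against 145 ± 46.3 CPM), as for 4.03% of the genes tested that were higher in every HLA→B6 mouse. The gene passed the filter on counts there through the HLA→B6 mice. These values are therefore a description, and no p-value and no fold change over the B6→B6 mice is given. The intervals of B6→B6 replicates 1 and 2 reached into that of HLA→B6 replicate 1 (94.7 to 142 CPM). B6→B6 replicates 1 and 2 are also linked libraries. They shared barcodes with HLA→B6 replicate 2 at 14.96 and 23.98 times the median rate of a pair. The part of shared barcodes in the C1q-side values of either gene was not tested.

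**Figure D3:**
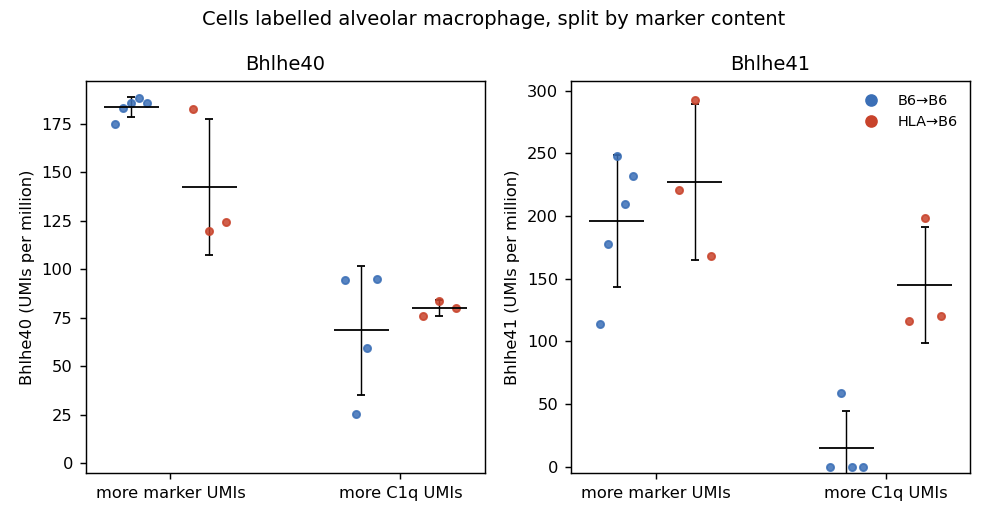
Bhlhe40 (left) and Bhlhe41 (right) in CPM in macrophage-labelled cells with more alveolar macrophage marker UMIs and in those with more C1q UMIs, one point per mouse with 10 or more such cells, B6→B6 in blue and HLA→B6 in red, with mean ± SD (lower bars end at the axis). Bhlhe40 is at 119.6 to 188 CPM on the marker side and at 25.3 to 94.8 on the C1q side, and Bhlhe41 on the C1q side is at 116 to 198 in the HLA→B6 mice and at 0 to 59.0 in the B6→B6 mice.

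In alveolar macrophages the 2 genes were found together in a cell somewhat more often than the product of their separate shares, a description with no test. At 1000 UMIs 2.55% of alveolar macrophages had a UMI of both, where the product of the shares (13.9% and 15.9%) was 2.21%, a ratio of 1.16. The ratio lay between 1.04 and 1.35 in 7 of 8 mice and at 0.593 in B6→B6 replicate 1, which had 91 such cells. In structural cells it was 0.885 over all cells and between 0 and 3.14 in single mice. In B cell cluster 1 it was 1.43 over all cells and between 0 and 1.74 in single mice.

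Of the genes known for macrophage identity and self-renewal, 10 of 10 were tested in alveolar macrophages, 1 rose and 3 fell, with a median log2 fold change of -0.42 where that of all genes was -0.03 and where 6.04% of all genes rose and 5.85% fell. *Myc*, a driver of proliferation, was at 36.2 ± 7.18 CPM in B6→B6 and 7.38 ± 7.76 CPM in HLA→B6 mice (log2 fold change -2.09, adjusted p = 0.0166). *Klf4*, which sustains macrophage self-renewal and whose promoter window holds the E-box printed above, was at 192 ± 51.0 and 87.2 ± 22.9 CPM (-0.95, adjusted p = 0.0210). *Pparg*, the nuclear receptor that sets alveolar macrophage identity, was at 89.9 ± 17.2 and 42.7 ± 15.3 CPM (-0.95, adjusted p = 0.0314), and *Csf2ra*, the receptor chain for GM-CSF, rose from 207 ± 57.3 to 308 ± 64.9 CPM (0.82, adjusted p = 0.0430). None of the 4 was past the threshold on the marker side alone, at -1.58 (adjusted p = 0.0885), -0.75 (0.0923), -0.50 (0.377) and 0.74 (0.0645) in that order. Without HLA→B6 replicate 2 their adjusted p values in all macrophages were 0.0676, 0.0845, 0.175 and 0.195, and without B6→B6 replicate 4 they were 0.0595, 0.0612, 0.100 and 0.112. *Pparg* also lost its call without B6→B6 replicate 1 or 5, and *Csf2ra* without any single mouse other than B6→B6 replicate 2 and HLA→B6 replicate 3. *Cebpb* (1891 ± 662 CPM over the 8 mice) and *Cebpa* (223 ± 54.3), factors of myeloid differentiation, had log2 fold changes of -0.62 (adjusted p = 0.0720) and 0.45 (adjusted p = 0.135).

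Of 19 clock genes, several of which both proteins are known to repress, 6 were abundant enough in alveolar macrophages to be tested and 0 passed (edgeR), with a median of -0.40. Of all genes tested 11.9% passed, with a median of -0.03, and a list of 6 is too small to be told apart from that share. *Csnk1e* (59.9 ± 20.2 CPM), a kinase of the PER proteins, had -0.54 (adjusted p = 0.171), and *Per1* (47.4 ± 15.4) had -0.28 (adjusted p = 0.530). *Csnk1d* (47.4 ± 12.9) had -0.01 (adjusted p = 0.981). Of 525 tested genes with the E-box in a promoter window 12.6% were called and the median log2 fold change was -0.02, close to 11.8% and -0.03 in genes with a window without it. Of the 14 Orange, Id and E protein genes measured, relatives and partners of the pair, 6 were tested and 0 passed, beside the same 11.9% of all genes. Their median log2 fold change was 0.02. *Id2*, an inhibitor of E proteins, had 199 ± 36.5 CPM and a log2 fold change of 0.53 (adjusted p = 0.0681), and it rose on the marker side (0.95, adjusted p = 0.0157). *Hes6* (33.2 ± 7.68 CPM) and *Tcf4* (33.1 ± 13.0), the next highest of this list, had 0.29 (adjusted p = 0.509) and 0.66 (adjusted p = 0.165).

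In cells labelled B cell, *Bhlhe41* did not differ between the groups beyond the spread of the mice. It was at 103, 41.1, 30.8, 44.7 and 13.7 CPM in B6→B6 replicates 1 to 5 and at 97.3, 81.1 and 12.3 CPM in HLA→B6 replicates 1 to 3. HLA→B6 replicate 3 was the lowest of all mice and the other two were just below B6→B6 replicate 1, whose value rests on 10 UMIs in 58 cells. The log2 fold change was 0.85 (SE 0.66, adjusted p = 1.00; 0.0333% of 6001 genes were called) and the thinned share was 2.05% ± 1.06 against 3.32% ± 2.49 (exact permutation p = 0.429). *Bhlhe40* in B cells lay between 0 and 24.7 CPM, with a log2 fold change of -0.16 (SE 0.54, adjusted p = 1.00) that changed sign without HLA→B6 replicate 3 (0.18).

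Within the B cells most *Bhlhe41* transcripts lay in 1 cluster. The authors' cluster 1, which they drew from the counts of these cells, this gene included, held 206 of the 2286 cells labelled B cell (9.01%) and 171 of their 204 *Bhlhe41* UMIs (83.8%), with 18.1% of their UMIs. This concentration is a description of the cluster and not a test. With all its 210 cells, *Bhlhe41* stood at 192 and 173 CPM in B6→B6 replicates 2 and 3 and at 308 and 196 CPM in HLA→B6 replicates 1 and 2, the 4 mice with 10 or more such cells. In the other 4 mice, with 5 to 8 cells each, 102 to 488 CPM were found. Cluster 0, the bulk of the B cells, had 9.85 ± 4.88 CPM (n = 8) and between 0 and 14.9 in single mice, so each mouse with enough cells was higher in cluster 1 than any mouse in cluster 0. At equal depth 15.9% ± 5.07 of cluster 1 cells (n = 4) and 0.875% ± 0.546 of cluster 0 cells (n = 8) had a UMI.

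*Bhlhe40* followed weakly, at 32.6 ± 19.6 CPM in cluster 1 and 11.9 ± 8.13 CPM in cluster 0, with ranges that overlapped. *Bhlhe41* accordingly made up 90.2% of the pair's UMIs in cluster 1, 41.9% in cluster 0 and 97.4% in cluster 2, the cluster of PCs. Cluster 3 held 157 cells at a median of 533 UMIs, and its counts of 0 for both genes have a 95% Poisson upper limit of 42.7 CPM.

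**Figure D4:**
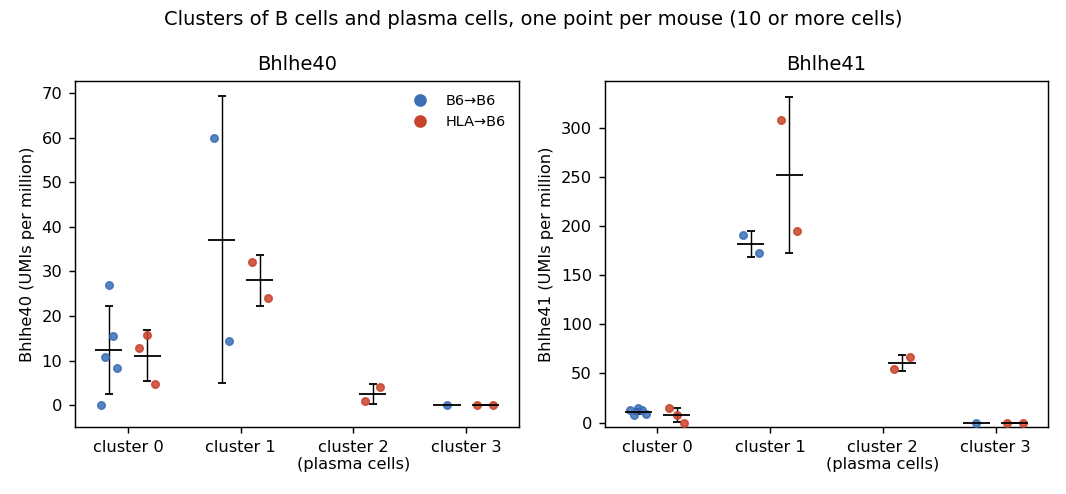
Bhlhe40 (left) and Bhlhe41 (right) in CPM in the 4 clusters of B cells and plasma cells, one point per mouse with 10 or more cells, B6→B6 in blue and HLA→B6 in red, with mean ± SD where 2 or more mice are shown. Bhlhe41 is at 173 to 308 CPM in cluster 1, at 54.9 and 66.6 in the plasma cell cluster, at 0 to 14.9 in cluster 0 and at 0 in the shallow cluster 3.

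Between the groups, cluster 1 had 182 ± 13.4 CPM of *Bhlhe41* in B6→B6 and 252 ± 79.6 CPM in HLA→B6 mice (n = 2 each). The 2 HLA→B6 mice were above the 2 B6→B6 mice, as they were for 19.7% of the genes tested. The log2 fold change was 0.49 (SE 0.34, adjusted p = 0.721; 0.635% of 2206 genes called), and 2 against 2 mice cannot give an exact permutation p below 0.333. It was 0.14 without HLA→B6 replicate 1 and 0.82 without replicate 2, and 0.12 with the linked libraries as a block. The thinned shares overlapped, at 13.5% ± 7.16 in B6→B6 and 18.4% ± 1.29 in HLA→B6 mice. The share of B cells that lay in cluster 1 was 8.62%, 8.33%, 5.68%, 3.38% and 1.68% in the B6→B6 mice and 17.4%, 21.6% and 1.72% in the HLA→B6 mice. The 3 mice highest in *Bhlhe41* over all B cells were the 3 with the largest shares, and the groups overlapped (5.54% ± 3.04 against 13.6% ± 10.5, exact permutation p = 0.179). Markers of PCs moved with the group in cluster 1: *Jchain*, *Xbp1*, *Sdc1* and *Mzb1* summed to 850.1 and 1094 CPM in B6→B6 and 1590 and 2623 CPM in HLA→B6 mice. Their part in the result was not tested.

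The B-1 genes, a list the study itself drew in part from these cells and which is therefore no independent evidence of their direction, had 9 of 11 members tested in B cells, of which 1 passed, with a median log2 fold change of 1.20 where that of all genes was 0.01. Of all 6001 genes tested in B cells 0.0333% passed. *Zbtb20*, a transcription factor of B-1 cells and PCs, rose from 98.8 ± 24.1 CPM in B6→B6 to 226 ± 57.1 CPM in HLA→B6 mice (log2 fold change 1.20, SE 0.20, adjusted p = 0.0132), and without HLA→B6 replicate 2 the adjusted p was 0.205, without B6→B6 replicate 3 it was 0.0536, and in cells of at least 2000 UMIs, an alternative chosen after seeing the data, it was 0.916. *S100a6* (93.7 ± 125 CPM), a calcium-binding protein, had -1.11 (adjusted p = 1.00), and *Anxa2* (64.4 ± 48.9), a membrane-binding annexin, had 1.35 (adjusted p = 1.00). In cluster 1, 9 of the 11 were tested and 0 passed (edgeR), beside 0.635% of the 2206 genes tested there. *Klf2*, a factor of B cell quiescence and homing listed with the macrophage genes, fell there from 2303 ± 243 to 896 ± 335 CPM (-1.33, adjusted p = 0.0281), and without HLA→B6 replicate 2 its adjusted p was 0.178, without B6→B6 replicate 2 0.767. In alveolar macrophages 3 of 8 tested members of the B-1 list fell, with a median log2 fold change of -0.31 beside -0.03 over all genes, of which 5.85% fell: *Plscr1* (-1.42, adjusted p = 0.0034), *Anxa2* (-1.01, adjusted p = 0.0303) and *Cd9* (-0.64, adjusted p = 0.0330), and of these *Plscr1*, a phospholipid scramblase induced by interferon, was past the threshold on the marker side too (-1.18, adjusted p = 0.0175). Without HLA→B6 replicate 2 the adjusted p of *Cd9* was 0.144, and without B6→B6 replicate 4 that of *Anxa2* was 0.0799. *Cd9* lost its call without any single mouse other than B6→B6 replicate 3 and HLA→B6 replicate 3, and *Anxa2* also without B6→B6 replicate 1 or 5. *S100a6* (406 ± 305 CPM) had 0.66 (adjusted p = 0.627).

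PCs carried *Bhlhe41* in the HLA→B6 group, the group that held 150 of the 172 PCs. HLA→B6 replicate 1 had 72 UMIs in 121 PCs (67.0 CPM) and replicate 2 had 16 in 27 PCs (66.6 CPM). The levels of these 2 mice did not differ beyond counting error, with 95% intervals of 52.4 to 84.4 and 38.1 to 108 CPM. The 22 PCs of 4 B6→B6 mice held 0 UMIs, with a 95% Poisson upper limit of 59.7 CPM that lay below both HLA→B6 levels and inside both of their intervals. No B6→B6 mouse had 10 PCs, so the groups were not compared by a test. In cluster 2, the cluster of PCs, 24 B6→B6 cells held 1 UMI (14.3 CPM, 95% interval 0.363 to 79.9) and 148 HLA→B6 cells held 74 (57.0 CPM, 44.7 to 71.5). *Bhlhe40* was at 3 and 1 UMIs in the same 2 HLA→B6 mice.

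In T cells *Bhlhe40* varied widely between mice: 31.4, 102, 61.8, 19.8 and 8.05 CPM in B6→B6 and 86.1, 106 and 40.3 CPM in HLA→B6 mice. The groups overlapped, with a log2 fold change of 0.77 (SE 0.62, adjusted p = 0.906; 0.154% of 7164 genes called). T cell cluster 7, 954 cells found in B6→B6 replicate 4 alone, had 5.28 CPM, and without it the fold change was 0.61 (adjusted p = 0.843). In the remaining T cells, of the listed genes, *Cxcr3*, a chemokine receptor of type 1 T cells, rose (0.80, adjusted p = 0.0441) and *Klf2*, a factor of quiescence and recirculation, fell (-1.0, adjusted p = 0.0269; 0.436% of 7106 genes called). Of 7 cytokine genes linked to *Bhlhe40* in T cells 2 were tested over all T cells, cluster 7 included, and 0 passed: *Ifng*, the main cytokine of type 1 responses, had 1.40 (adjusted p = 0.178) and *Il2*, a T cell growth factor, -0.36 (adjusted p = 0.913), both named after their values were seen. NK cells, the type with the highest mean of *Bhlhe40*, lay between 105 and 183 CPM in B6→B6 and between 98.7 and 151 CPM in HLA→B6 mice, with a log2 fold change of -0.18 (SE 0.25, adjusted p = 0.998). Of 2987 genes tested in NK cells 0 were called by edgeR, 93 had an unadjusted p under 0.05, and DESeq2 called 0.

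Monocytes had 82.7, 53.1, 50.3, 65.2 and 23.4 CPM of *Bhlhe40* in B6→B6 and 61.7, 123 and 74.3 CPM in HLA→B6 mice, with overlap and a log2 fold change of 0.60 (SE 0.31, adjusted p = 0.999; 0.23% of 4352 genes called). *Cd9*, a tetraspanin of the cell surface, rose in monocytes from 294 ± 70.4 to 605 ± 139.8 CPM (1.02, adjusted p = 0.0499), and without HLA→B6 replicate 2 its adjusted p was 0.356, with the call also lost without HLA→B6 replicate 3 or any 1 of B6→B6 replicates 2 to 5. The myeloid label had the largest SD of the types in CPM (104), from 33.6 CPM in HLA→B6 replicate 3 to 352 CPM in B6→B6 replicate 1, with a log2 fold change of -0.58 (SE 0.59, adjusted p = 0.999; 0.0228% of 4395 genes called). Structural cells showed the largest fold change of *Bhlhe40* among the 7 types fitted, 1.10 (SE 0.24), at an adjusted p of 0.0539 against 0.641% of 8109 genes called. Their levels were 48.2, 50.1, 47.1, 34.2 and 13.6 CPM in B6→B6 and 117, 109.9 and 26.0 CPM in HLA→B6 mice. This label includes the red blood cells. *Hbb-bs* and *Hba-a1* summed to between 50579 and 524611 CPM in its B6→B6 mice and between 57032 and 409147 CPM in its HLA→B6 mice. Fewer UMIs are then left for other RNA, and the part of this in the *Bhlhe40* levels was not tested. HLA→B6 replicates 1 and 2 were above every B6→B6 mouse and replicate 3 was among the B6→B6 mice, and without it the adjusted p was 0.0079. Within structural cluster 0, a cluster with endothelial genes, the thinned share was 6.15% ± 0.479 in 4 B6→B6 and 10.9% ± 2.23 in 3 HLA→B6 mice (exact permutation p = 0.0571). That p is the smallest that 4 against 3 mice can give, and it was not corrected for the other structural clusters compared. The CPM levels there overlapped (74.5 ± 37.6 in 5 B6→B6 and 127 ± 18.5 in 3 HLA→B6 mice, exact permutation p = 0.107). The log2 fold change was 1.09 (adjusted p = 0.103, with 0.686% of 3645 genes called). In structural cluster 2 *Bhlhe40* lay between 0 and 44.3 CPM in B6→B6 mice and at 64.0, 161 and 69.8 CPM in HLA→B6 replicates 1, 2 and 3 (exact permutation p = 0.0357, not corrected for the other structural clusters compared, with 3.59% of 1643 genes higher in every HLA→B6 mouse), while the thinned shares overlapped (2.75% ± 3.16 against 10.99% ± 5.31, exact permutation p = 0.0714).

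*Bhlhe41* in the myeloid label was unevenly placed. Of its 45 UMIs 38 were in HLA→B6 replicate 1, in 8 deep cells (median 15078 UMIs). Summed over these 8 cells, *Igkc* was at 92914 CPM, against 5941 in the other 167 myeloid cells of that mouse. *Jchain* was at 4947 against 423, and the mitotic kinase *Aurkb* at 294 against 31.6. These genes were chosen after their values were seen. Only 3 of the 8 cells held a *Jchain* UMI, so its sum does not describe each cell. Immunoglobulin and mitotic transcripts were thus high in the sum of these cells, and their part in the level of *Bhlhe41* was not tested.

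**Figure D5:**
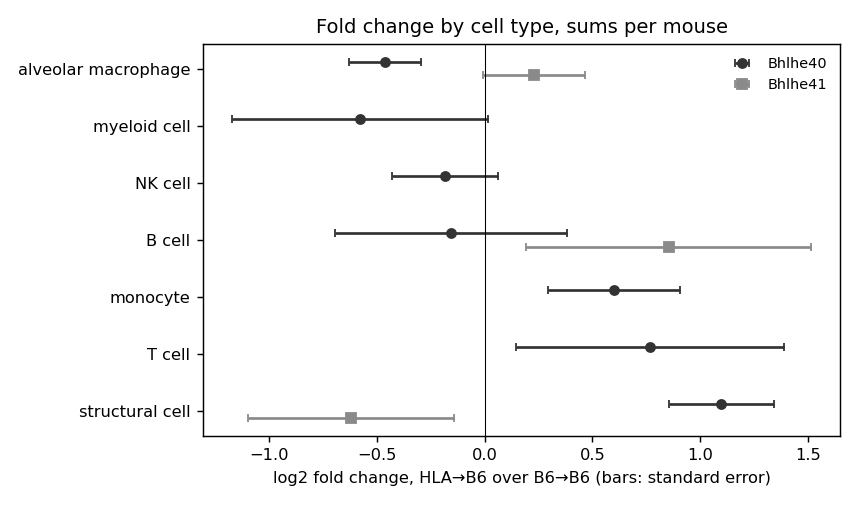
Log2 fold change of HLA→B6 over B6→B6 mice for Bhlhe40 (black circles) and Bhlhe41 (grey squares) in each cell type with enough counts, from sums per mouse (edgeR), with standard errors as bars. Bhlhe40 is below 0 in alveolar macrophages, myeloid cells, NK cells and B cells and above 0 in monocytes, T cells and structural cells, and each of these fold changes missed the adjusted threshold of 0.05.

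The difference between cell types was tested mouse by mouse, as the log2 level of *Bhlhe40* in alveolar macrophages minus that in another type of the same mouse (10 CPM added). Against monocytes this was 1.50 on average in B6→B6 and 0.27 in HLA→B6 mice, a difference of -1.23 (exact permutation p = 0.0357, adjusted over 4 pairs 0.143). The groups did not overlap, as for 11.5% of the 4043 genes tested in both types, for which this difference was likewise lower in every HLA→B6 mouse. Against T cells it was -1.52 (p = 0.0714 by the exact test, adjusted 0.143), and against B cells -0.70 (exact p = 0.214, adjusted 0.286). For *Bhlhe41* the difference between alveolar macrophages and B cells was -0.27 (exact p = 0.714). The marker content of the macrophages given above moved with the first of these differences, and its part was not tested.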

How the data were processed

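The authors deposited UMI counts (a 10x 3′ assay, Cell Ranger on mm10 and GRCm38, Seurat, per the labels and the processing notes) for 17921 genes in 20778 cells of 8 mice, with cell type and cluster names. The study removed free RNA with SoupX, and the sources used here do not say whether these counts precede that step. Counts were summed per mouse and type (at least 10 cells) and tested with edgeR 4.0.16 (quasi-likelihood, TMM, filterByExpr with a minimum count of 10, Benjamini-Hochberg over all genes, threshold 0.05) in R 4.3.3. Single values were compared by exact two-sided permutation of mice (SciPy 1.17.1, Python 3.11.15). Shares of cells were the expected shares after thinning to 1000 UMIs, without shallower cells. CPM levels are sums without TMM. Cell types were compared by description, except in the differences between types within a mouse. Intervals, also for counts of 0, are exact Poisson intervals (95%) and cover counting error only. Named genes were the pair, listed genes called or among the 3 highest of their list in alveolar macrophages or B cells, markers, and the 5 genes with the highest Pearson r of log2(CPM + 10). The members and lists were chosen with earlier results of these data known. Some listed genes enter the list counts and medians but are not reported here by name. On simulated alveolar macrophage counts 194 of 196 changed genes were recovered, with 5 false calls among 5556 genes. How recovery depends on the size of a fold change was not tested. Doublets called by Scrublet (256 cells, 1.23%) stayed in, as did cells with shared barcodes (793 were left out in the alternative). Alternatives were DESeq2 1.42.0, no TMM, no filter, other depths, left-out mice, library sets and replicate numbers as blocks. Same-numbered mice did not all deviate together in alveolar macrophages (r of -0.05, 0.35 and -0.26), so numbers were not taken as pairs. Cell names of the HLA→B6 libraries carry other numbers than the sample names given for the same cells, which were used here. The check rests on that numbering and cannot exclude another pairing.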

Additional observations from a re-analysis of the deposited data

Results flagged for a closer look

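The effect of the group on *Bhlhe40* was compared between 2 cell types of the same mice, and the difference passed before adjustment but not after it: the log2 difference between HLA→B6 and B6→B6 mice in alveolar macrophages was 1.23 below that in monocytes (-1.23, exact permutation p = 0.0357, 0.143 after adjustment over 4 pairs of types, and between -1.51 and -0.90 when single mice were left out). In 3 of 3 HLA→B6 mice the macrophage minus monocyte difference was below that of all 5 B6→B6 mice, as for 11.5% of the 4043 genes tested in both types. The share of marker-side cells among the macrophages moved with it, and its part was not tested. Of 26 groups of B6→B6 values examined for a mouse far from the others, 0 held one. The HLA→B6 mice were not examined in this way.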

How the results depend on the processing

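Of 194 alternative values of the 11 fold changes of the pair, 182 kept direction and side of the threshold. *Bhlhe40* in alveolar macrophages (-0.46) passed without TMM (-0.69, adjusted p = 0.0192), without shared barcodes (-0.49, 0.0454) and with library sets as a block (-0.50, 0.0307), and was 0.54 (0.640) on the C1q side; without single mice it lay between -0.52 and -0.41. *Bhlhe41* there was -0.020 without TMM, which moved the median of all genes from -0.03 to -0.26 and the calls from 350 up and 339 down to 206 up and 682 down, and lay between -0.047 and 0.37 without single mice (-0.047 without HLA→B6 replicate 2). *Bhlhe40* in B cells was 0.035 with library sets as a block and -0.26 to 0.18 without single mice. In structural cells it passed without the filter (1.14, adjusted p = 0.0025), in cells of at least 500 UMIs (1.13, 0.0490), without doublets (1.12, 0.0451) and without HLA→B6 replicate 3 (range 0.92 to 1.32). *Cd9* was 0.98 on the C1q side, and as means over cells the *Bhlhe41* level was 70.3 CPM in PCs and 29.0 CPM in B cells (53.0 over mice). The causes were not tested.

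Differences of share, in percentage points, changed sign for *Bhlhe40* in B cells (0.0465, at 500 UMIs -0.0112, without single mice -0.314 to 0.412), on the C1q side (3.28), in myeloid cells at 2000 UMIs (0.0844) and in NK cells at 2000 UMIs (4.46, without single mice -2.39 to 0.203), and for *Bhlhe41* in macrophages without thinning (1.29), on the marker side (2.90) and the C1q side (10.4), and in structural cells at 2000 UMIs (0.0731, without single mice -0.582 to 0.249). The *Bhlhe41* difference between macrophages and B cells lay between -0.88 and 0.20 without single mice. Genes called in macrophages (689) were 266 to 814 without single mice, 1262 with library sets as a block, 239 on the marker side and 21 on the C1q side. With the replicate block (numbers 1 to 3, 3 mice a group) they were 334, against 120 for the same mice without it; *Bhlhe40* was -0.36 (adjusted p = 0.319) and *Bhlhe41* 0.48 (0.251), and 1 of 3 HLA→B6 mice correlated best with its own number. Calls ranged over 0 to 32 in B cells, 0 to 47 in T cells, 0 to 61 in monocytes, up to 101 in myeloid cells, 0 to 9 in NK cells, 13 to 146 in structural cells and 0 to 69 in B cell cluster 1. Of 195 alternative values of the 10 listed genes tracked, 142 kept their call, 52 lost it and 1 changed sign. Depth limits PCs of B6→B6 mice, cluster 3 and the C1q side of B6→B6 mice.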

Other observations

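Structural cells held 17.7% of all *Bhlhe40* UMIs, and the level varied among their clusters. It was highest in cluster 5, at 125 ± 59.2 CPM (SD, n = 7 mice), and in cluster 0, at 94.1 ± 40.4 CPM (n = 8), and lowest among the clusters of 6 or more mice in the red blood cells. *Bhlhe41* stood out in structural cluster 1 of B6→B6 replicate 4, where 37 of the cluster's 42 UMIs were found (54.1 CPM in 602 cells, the largest sample of this cluster), and it was between 0 and 24.0 CPM there in the other mice.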
